A study of Homo sapiens with 4 samples.

Results

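The genes described here make sterols and fatty acids, control that synthesis, or move cholesterol within and out of the cell. They were chosen by name, as 39 symbols of this pathway, and each symbol matched 1 of the 41084 Ensembl gene identifiers in the deposited tables. Of the 39 members, 38 had enough counts to be tested, and ABCG1 did not. The RNA was that of OCI-AML3, an established line of human acute myeloid leukaemia. In the genotype label, 2 libraries are Plex CEBPB and the 2 they are set against are Plex Control. CEBPB encodes the transcription factor C/EBPβ. The sources used here do not say what Plex stands for or how the genotype was made. Nor do they say whether either group is a single clone, or whether the libraries of a group came from separate cultures. The p-values therefore set each group difference only against the spread between these libraries, estimated in part over all identifiers. That spread may be technical.

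Cells build cholesterol from acetyl-CoA through mevalonate and the isoprenoids farnesyl and geranylgeranyl diphosphate, then squalene, lanosterol and a series of trimming steps. Fatty acids start from the same acetyl-CoA, which ATP citrate lyase cuts from citrate, and are lengthened and desaturated afterwards. Both routes are controlled by the membrane-bound factors SREBP-1 and SREBP-2, which SCAP escorts out of the endoplasmic reticulum when sterol is scarce and which INSIG proteins hold back when it is plentiful. Excess sterol activates the LXR receptors, which raise the efflux pumps ABCA1 and ABCG1.

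CEBPB itself stood at 536 and 339 TPM in the CEBPB libraries, against 4.72 and 4.47 TPM in the controls (TPM is the transcript share of a gene, scaled to the same total in each library). The deposited counts summed to between 18151225 and 21950575 per library. Spearman correlations between libraries were 0.990 within CEBPB, 0.992 within the controls and 0.923 to 0.931 between the groups. Of 8 myeloid markers, 6 were above 1 TPM in all 4 libraries, and MPO and ITGAM were not. LYZ and ITGAM rose, SPI1, CD68, CSF3R, LILRB4 and MPO fell, and CD33 did not pass. Their summed level was 8019 and 8316 TPM in the CEBPB libraries, against 2097 and 1995 TPM in the controls, most of it LYZ, and without LYZ it was 332 and 395 TPM in the CEBPB libraries, against 684 and 687 TPM in the controls. What these shifts contribute to the results was not tested. Of 21 markers of other cell types, 18 were at 1 TPM or less in every library. The exceptions were COL1A1 at 0.449 to 1.84 TPM, PECAM1, which myeloid cells also express, at 33.9 and 36.1 TPM in CEBPB against 86.6 and 77.6 TPM in the controls, and DCN at 20.4 and 20.8 TPM in the CEBPB libraries against 1.03 and 0.576 TPM in the controls. The summed level of the 3 fibroblast markers, DCN and COL1A1 among them, was 22.3 and 21.8 TPM in the CEBPB libraries and 1.49 and 1.32 TPM in the controls, while COL1A2 was at 0.0198 TPM or less in every library, and the part of these markers' cells in the results was not tested.

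In the CEBPB libraries 10 of the 20 mevalonate and sterol members rose and 2 fell, while 4 of the 8 fatty acid members fell and 1 rose. HMGCS1, MSMO1, CYP51A1 and SC5D rose between 2.1-fold and 3.41-fold, while FASN fell 2.51-fold and ACLY, ACACA and SCD fell less. ABCA1 rose 8.0-fold, the largest change among the members. The genes for SREBP-1, SREBP-2 and INSIG1 did not pass the test. The threshold was a Benjamini-Hochberg adjusted p under 0.05 in the quasi-likelihood test of edgeR. Of the 38 members tested, 14 rose (36.8%), 7 fell (18.4%) and 17 did not pass. Of all 13698 identifiers tested, 23.7% were called higher and 24.7% lower, so the share of members called in either direction, 55.3%, was near the 48.5% of all identifiers. Tested against a 1.5-fold change instead of 0, 7 members were higher (18.4%, against 8.66% of all identifiers) and 2 lower (5.26%, against 8.67%). Fold changes here are scaled by trimmed mean of M values. Scaling by library totals alone shifts the median of all identifiers up by 0.18 on the log2 scale, as TPM does, and then 19 members were higher and 3 lower. The higher share of member calls was 86.4% under that scaling and 66.7% in the main test. Over all identifiers, library totals called 49.5%, with 32.3% higher and 17.2% lower, so that 65.2% of calls were higher, against 49.0% in the main test. In bulk RNA, fewer cells expressing a gene and less RNA per cell cannot be told apart.

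**Figure D1:**
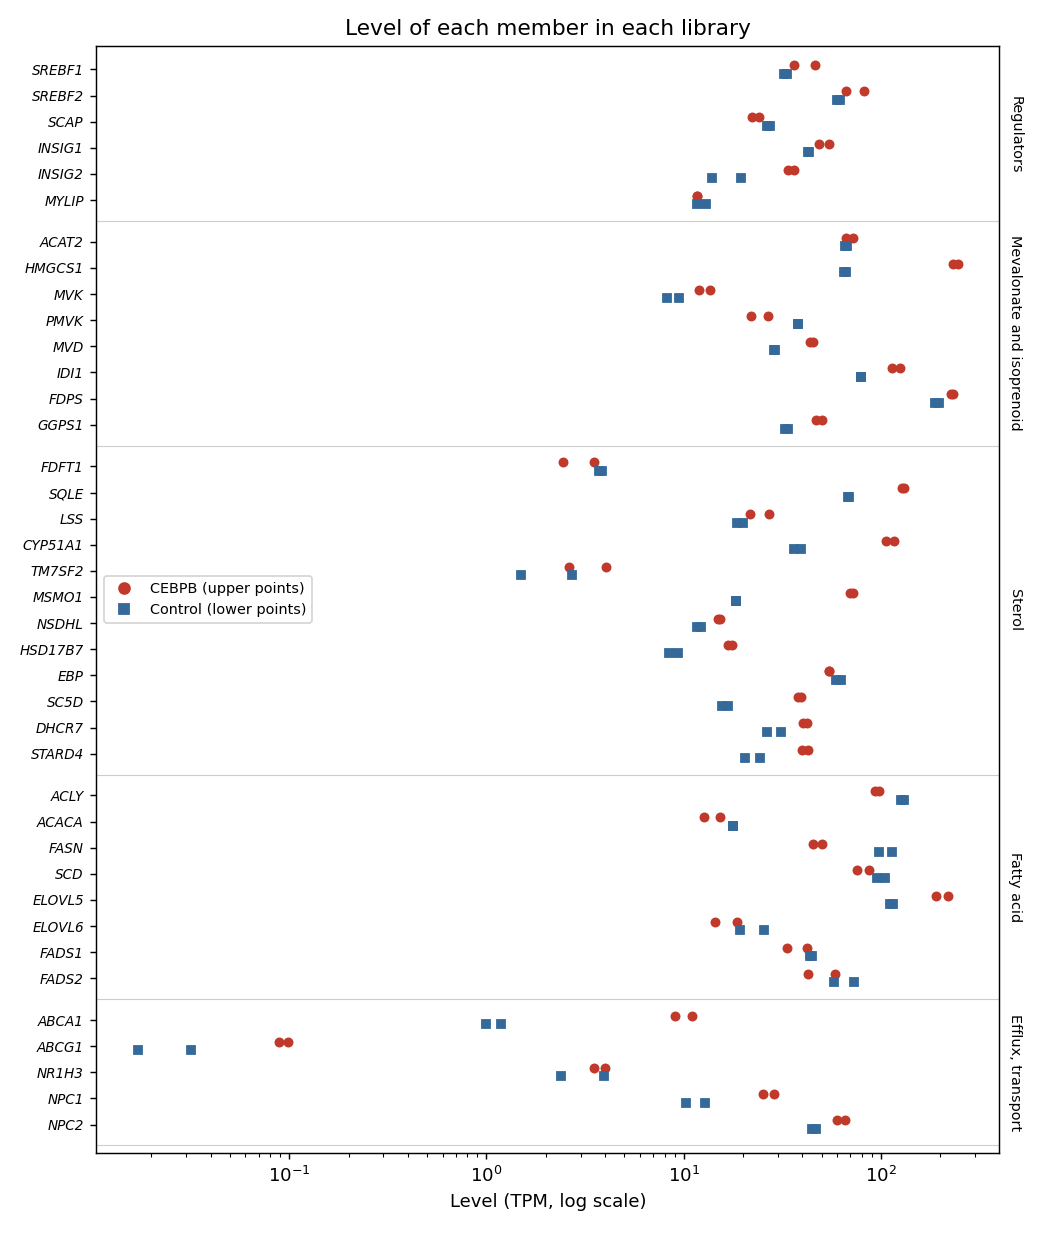
Level of each of the 39 members in each library, in TPM on a log axis, grouped by step, with circles for the 2 CEBPB libraries and squares for the 2 Control libraries. HMGCS1, MSMO1, CYP51A1 and ABCA1 stand clear to the right in the CEBPB libraries, and FASN stands to the left.

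The groups did not overlap in TPM for 33 of the 38 tested members, 23 of them higher and 10 lower in the CEBPB libraries. Such separation was common, at 77.4% of all identifiers tested (48.7% higher and 28.6% lower). The 5 members whose groups overlapped were MYLIP, ACAT2, TM7SF2, FADS2 and NR1H3. HMGCS1 held rank 1 among the members by mean TPM in the CEBPB libraries and rank 10 in the controls. FASN held rank 17 in the CEBPB libraries and rank 4 in the controls.

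Among the 6 regulators, INSIG2 rose, SCAP fell and 4 did not pass. INSIG2, an endoplasmic reticulum anchor that retains the SCAP-SREBP complex, stood at 33.6 and 36.4 TPM in the CEBPB libraries, against 13.9 and 19.4 TPM in the controls. Its log2 fold change was 0.89 (edgeR adjusted p = 0.00961, SE 0.17). SCAP, the sterol-sensing escort of SREBP, stood at 24.0 and 22.2 TPM in the CEBPB libraries, against 27.3 and 26.4 TPM in the controls. Its log2 fold change of -0.39 (edgeR adjusted p = 0.00978, SE 0.08) did not pass with library totals (adjusted p = 0.103) or without Control replicate 1 (adjusted p = 0.0581).

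SREBF2, which encodes the sterol-directed SREBP-2, read 66.2 and 81.7 TPM in the CEBPB libraries, against 62.1 and 60.2 TPM in the controls. Its log2 fold change was 0.10 (95% interval -0.24 to 0.44, edgeR adjusted p = 0.581). SREBF1, which encodes SREBP-1, read 36.2 and 46.4 TPM in the CEBPB libraries, against 32.1 and 33.4 TPM in the controls, a log2 fold change of 0.16 (95% interval -0.23 to 0.54, edgeR adjusted p = 0.438). CEBPB replicate 2 held the highest level of both genes. Without CEBPB replicate 1 both passed as higher (SREBF1 0.37, adjusted p = 0.0289; SREBF2 0.29, edgeR adjusted p = 0.0403), and without CEBPB replicate 2 both were slightly below 0 (-0.069 and -0.098). INSIG1, the second retention protein and itself a known SREBP target, stood at 48.6 and 54.7 TPM in the CEBPB libraries, against 42.4 and 43.4 TPM in the controls. Its log2 fold change was 0.09 (95% interval -0.16 to 0.34, edgeR adjusted p = 0.505), and -0.035 without CEBPB replicate 2. The ratio of INSIG1 to INSIG2 was 1.444 and 1.503 in the CEBPB libraries and 3.06 and 2.23 in the controls, so INSIG2 took a larger part of the pair in both CEBPB libraries. The ratio of SREBF1 to SREBF2 was 0.547 and 0.568 in the CEBPB libraries and 0.517 and 0.554 in the controls, which overlap. With 2 libraries against 2 the exact permutation test cannot go below p = 0.333, so ratios and sums are given without a call. MYLIP, the LXR-induced ubiquitin ligase that removes lipoprotein receptors, read 11.7 TPM in both CEBPB libraries and 11.7 and 12.9 TPM in the controls.

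In the mevalonate and isoprenoid steps, 4 of 8 members rose and PMVK fell. HMGCS1, the cytosolic HMG-CoA synthase (chromosome 5, 43289395 to 43313512, minus strand, GRCh38), stood at 247 and 231 TPM in the CEBPB libraries, against 66.2 and 65.2 TPM in the controls. Its mean was 239 ± 11.6 TPM in CEBPB and 65.7 ± 0.711 TPM in the controls (SD, n = 2 each), a log2 fold change of 1.68 (edgeR adjusted p = 0.000121, SE 0.06). The lowest CEBPB library was far above the highest control. PMVK, phosphomevalonate kinase, went the other way, with 26.8 and 22.03 TPM in the CEBPB libraries against 38.0 and 37.8 TPM in the controls (log2 fold change -0.81, edgeR adjusted p = 0.00167, SE 0.09). IDI1, which isomerises isopentenyl diphosphate, read 125 and 114 TPM in the CEBPB libraries, against 78.8 and 79.2 TPM in the controls (0.42, edgeR adjusted p = 0.00383, SE 0.06). MVD, the decarboxylase before it, read 43.8 and 45.3 TPM in the CEBPB libraries, against 29.003 and 28.8 TPM in the controls (0.45, edgeR adjusted p = 0.00696, SE 0.08). On recovered reads without a length offset the MVD call was lost (adjusted p = 0.0653), with an effective length that changed by -13.3% in CEBPB.

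GGPS1, which makes geranylgeranyl diphosphate for protein prenylation, also rose, to 50.4 and 46.8 TPM in the CEBPB libraries against 32.5 and 33.6 TPM in the controls (0.38, edgeR adjusted p = 0.00723), but not without Control replicate 1 (adjusted p = 0.0641). Annotated exons of GGPS1 share 1422 bases with TBCE on the same strand, so reads may be split between these genes. FDPS, farnesyl diphosphate synthase, was abundant in every library at 226 and 232 TPM in CEBPB and 189 and 198 TPM in the controls, and its log2 fold change of 0.07 had a 95% interval of -0.11 to 0.25, while library totals gave an adjusted p of 0.0261. ACAT2, the cytosolic acetoacetyl-CoA thiolase that opens the pathway, stood at 72.1 and 66.2 TPM in CEBPB and 66.9 and 65.4 TPM in the controls (log2 fold change -0.11, and 0.066 with library totals). MVK, mevalonate kinase, read 13.5 and 11.9 TPM in CEBPB and 8.2 and 9.46 TPM in the controls (0.35, edgeR adjusted p = 0.0748), and cleared the threshold with library totals (adjusted p = 0.0279). The kinases on either side of phosphomevalonate therefore had log2 fold changes of 0.35 and -0.81, and only the second passed.

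In the sterol steps, 6 of 12 members rose and EBP fell. MSMO1, the C4-methylsterol oxidase (chromosome 4, 165327623 to 165343160, plus strand), had 70.0 and 72.3 TPM in the CEBPB libraries, against 18.4 and 18.5 TPM in the controls. Its mean was 71.1 ± 1.6 TPM in CEBPB and 18.4 ± 0.0416 TPM in the controls (SD, n = 2 each), a log2 fold change of 1.77 (edgeR adjusted p = 0.000163, SE 0.08). CYP51A1, the lanosterol 14-alpha-demethylase (chromosome 7, 92112151 to 92134803, minus strand), had 117 and 106 TPM in the CEBPB libraries, against 36.4 and 39.6 TPM in the controls (1.38, edgeR adjusted p = 0.000231, SE 0.07). Of its 3584 annotated exon bases, 2844 are shared with AC000120.2 on the same strand, so reads may be split between these genes. SC5D, the lathosterol oxidase near the end of the route, had 39.4 and 37.8 TPM in the CEBPB libraries, against 16.8 and 15.6 TPM in the controls (1.07, edgeR adjusted p = 0.000532, SE 0.08). These 3 oxidases act on lanosterol and its products, and in each the CEBPB libraries stood well above both controls.

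SQLE, squalene epoxidase, stood at 131 and 128 TPM in the CEBPB libraries, against 67.7 and 69.2 TPM in the controls (0.74, edgeR adjusted p = 0.000693). HSD17B7, the 3-ketosteroid reductase, stood lower, at 16.7 and 17.5 TPM in the CEBPB libraries against 8.43 and 9.33 TPM in the controls (0.76, edgeR adjusted p = 0.00442). STARD4, a cytosolic carrier of cholesterol rather than an enzyme, had 39.7 and 42.6 TPM in the CEBPB libraries, against 20.5 and 24.5 TPM in the controls (0.69, edgeR adjusted p = 0.00621). EBP, the sterol delta8-delta7 isomerase, had 54.4 and 54.7 TPM in the CEBPB libraries, against 62.6 and 59.1 TPM in the controls (-0.34, edgeR adjusted p = 0.0141, SE 0.07). That call was lost without Control replicate 1 (adjusted p = 0.0989), Control replicate 2 (0.0532) or CEBPB replicate 1 (0.0546) and with library totals (0.133).

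DHCR7, which carries out the last reduction to cholesterol, read 40.1 and 42.3 TPM in the CEBPB libraries, against 26.6 and 31.2 TPM in the controls, and did not pass (0.33, edgeR adjusted p = 0.051), though it did under 7 of 15 alternatives, library totals among them (adjusted p = 0.0107). LSS, which folds squalene epoxide into lanosterol, read 27.1 and 21.7 TPM in CEBPB and 19.9 and 18.7 TPM in the controls (0.16, 95% interval -0.12 to 0.44). NSDHL, the C4 decarboxylase that acts with MSMO1, read 14.98 and 15.3 TPM in CEBPB and 12.2 and 11.6 TPM in the controls (0.16, 95% interval -0.10 to 0.43, and adjusted p = 0.0429 with library totals). Values of NSDHL are identical to those of 1 other identifier, so their reads are not told apart. TM7SF2, a sterol reductase, was at 4.04 TPM or less in every library. FDFT1, squalene synthase, was listed at only 3.51 and 2.43 TPM in the CEBPB libraries and 3.7 and 3.83 TPM in the controls, on 32.0 to 85.2 recovered reads a library (log2 fold change -0.53, 95% interval -1.13 to 0.07). On those reads without a length offset FDFT1 passed as lower (adjusted p = 0.0109). Its neighbours in the route, FDPS and SQLE, were at 67.7 TPM or more in every library, so the level listed for FDFT1 is uncertain.

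Stretches upstream of RefSeq gene starts are shown for HMGCS1 and MSMO1, the most strongly raised enzymes of the mevalonate and sterol steps. Others are shown for ABCA1, for ACLY and SCD, which fell, and for SREBF2. SREBF2 did not pass, but its promoter holds an exact match to the SREBP site searched here. The sequences are from RefSeq, build GRCh38.p14, 5′ to 3′ on the gene's strand. Capitals mark CCAAT, the box bound by NF-Y, a known partner of SREBP, in either orientation (ATTGG is its reverse), the E-box CACGTG, or the SREBP site TCACNCCAC.
MSMO1, chr4:165327479-165327644, plus strand: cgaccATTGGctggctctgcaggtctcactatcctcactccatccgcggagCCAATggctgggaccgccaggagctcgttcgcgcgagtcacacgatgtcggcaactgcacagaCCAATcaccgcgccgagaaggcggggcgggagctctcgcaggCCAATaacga
HMGCS1, chr5:43313503-43313572, minus strand: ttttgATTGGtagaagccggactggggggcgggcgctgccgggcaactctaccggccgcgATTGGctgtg
ABCA1, chr9:104928258-104928307, minus strand: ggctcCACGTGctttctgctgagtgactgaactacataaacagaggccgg
SREBF2, chr22:41832965-41833010, plus strand: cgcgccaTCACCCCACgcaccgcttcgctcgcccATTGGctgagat
ACLY, chr17:41919033-41919092, minus strand: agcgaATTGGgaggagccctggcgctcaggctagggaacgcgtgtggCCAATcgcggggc
SCD, chr10:100346999-100347058, plus strand: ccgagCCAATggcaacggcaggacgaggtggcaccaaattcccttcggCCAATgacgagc
The RefSeq start used for ACLY lies 11520 bases inside the GENCODE v29 span of the gene, so its stretch is upstream of that start only. MSMO1 has 4 CCAAT matches in this stretch and HMGCS1, ACLY and SCD have 2 each, so genes that rose and genes that fell both hold them.

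The RefSeq table held a promoter of 300 bases, 250 before the start and 50 from it, for 34 of the 39 members. ABCG1, ACAT2, FASN, FDFT1 and SQLE are the others. For the 11 members with more than 1 start the first listed was used, and for 14 members the start lay over 250 bases from the end of the GENCODE span. With both strands searched, CCAAT was present in 20 of 34 member promoters (58.8%), and in 34.7% of 22199 promoters of protein-coding genes. It was present in 7 of 13 members that rose and 3 of 6 that fell. The other holders, DHCR7, FDPS, INSIG1, LSS, MVK, MYLIP, NPC2, NSDHL, SREBF2 and TM7SF2, did not pass in either direction. At least 2 matches were present in 15 members (44.1%), and in 11.4% of protein-coding promoters. The E-box CACGTG was present in 6 member promoters (17.6%, against 8.34%) and the C/EBP site TTGCNNAA in 3 (8.82%, against 8.69%). By direction, the E-box was in 3 of 13 members that rose and 1 of 6 that fell, and the C/EBP site in 0 of 13 and 1 of 6. AGGTCA, only a part of a nuclear receptor site, was present in 2 (5.88%, against 11.9%). Whole sites of the LXR receptors were not searched for. The SREBP site TCACNCCAC was present in 1, the SREBF2 promoter printed here, and in 1.13% of protein-coding promoters. In NSDHL a CCAAT match overlaps the C/EBP site and a pair of CCAAT matches overlap each other. A match describes the letters in this window and is no evidence of binding. Lack of an exact match does not show that a member has no such site.

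**Figure D2:**
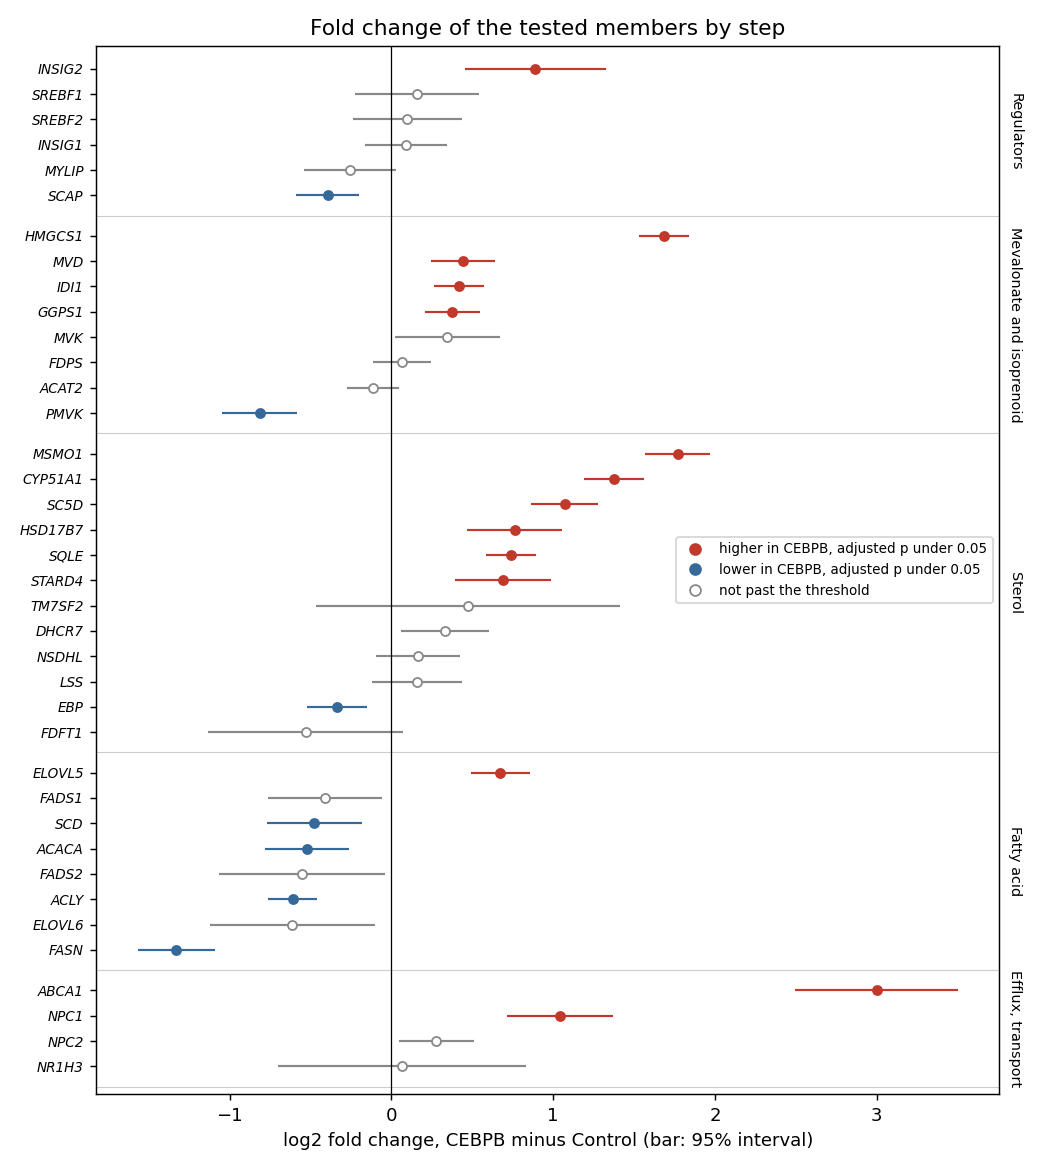
Log2 fold change (CEBPB minus Control) of the 38 tested members by step, with 95% intervals that are not adjusted for the number of tests (red, called higher; blue, called lower; open grey, not past the threshold). Sterol enzymes lie mostly to the right of 0, and 7 of 8 fatty acid genes to the left.

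In the fatty acid steps the direction turned: 4 of 8 members fell and ELOVL5 rose. FASN, fatty acid synthase (chromosome 17, 82078333 to 82098332, minus strand), stood at 50.0 and 45.1 TPM in the CEBPB libraries, against 97.3 and 114 TPM in the controls. Its mean was 47.6 ± 3.49 TPM in CEBPB and 105 ± 11.5 TPM in the controls (SD, n = 2 each), a log2 fold change of -1.33 (edgeR adjusted p = 0.000448, SE 0.10). Both CEBPB libraries lay far below both controls. ACLY, which supplies cytosolic acetyl-CoA to both routes, stood at 97.8 and 93.1 TPM in the CEBPB libraries, against 127 and 130.2 TPM in the controls (-0.61, edgeR adjusted p = 0.00111, SE 0.06). ACACA, acetyl-CoA carboxylase, which makes malonyl-CoA, stood at 15.3 and 12.7 TPM in the CEBPB libraries, against 17.7 TPM in both controls (-0.52, edgeR adjusted p = 0.0105, SE 0.10), and was short of the threshold with library totals (adjusted p = 0.0687). SCD, the stearoyl-CoA desaturase, stood at 75.2 and 87.5 TPM in the CEBPB libraries, against 95.5 and 104.5 TPM in the controls (-0.47, edgeR adjusted p = 0.0209), and did not pass with library totals (0.0545) or without Control replicate 2 (0.0964).

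ELOVL5, the elongase of polyunsaturated fatty acids, was the exception, at 219.6 and 189.9 TPM in the CEBPB libraries, against 111 and 116 TPM in the controls (0.67, edgeR adjusted p = 0.00143, SE 0.07). ELOVL6, which lengthens palmitate, pointed down without passing, at 14.5 and 18.7 TPM in CEBPB and 19.2 and 25.5 TPM in the controls (-0.61, edgeR adjusted p = 0.0546). The ratio of ELOVL6 to ELOVL5 was 0.066 and 0.0985 in the CEBPB libraries and 0.173 and 0.221 in the controls, so the groups did not overlap. The desaturases FADS1 (-0.41, edgeR adjusted p = 0.0587) and FADS2 (-0.55, edgeR adjusted p = 0.0731), whose annotated spans overlap on chromosome 11, also did not pass. FADS1 read 33.5 and 42.0 TPM in CEBPB and 43.8 and 44.9 TPM in the controls. FADS2 overlapped between the groups, at 42.6 and 58.6 TPM in CEBPB and 57.9 and 73.4 TPM in the controls. ELOVL6, FADS1 and FADS2 each passed with DESeq2 (adjusted p = 0.0339, 0.0433 and 0.0152), which called 40.5% of all identifiers (19.2% higher and 21.3% lower). They also passed with a replicate block (edgeR adjusted p = 0.0045, 0.0265 and 0.00431), where 24.1% of all identifiers were lower. On recovered reads with a length offset they passed too (edgeR adjusted p = 0.0244, 0.0241 and 0.0336), with 28.4% lower. None of them passed with library totals (edgeR adjusted p = 0.108, 0.164 and 0.141). Exons of FADS1 and FADS2 share 490 bases on opposite strands, and whether strand was used in the quantification is not stated.

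**Figure D3:**
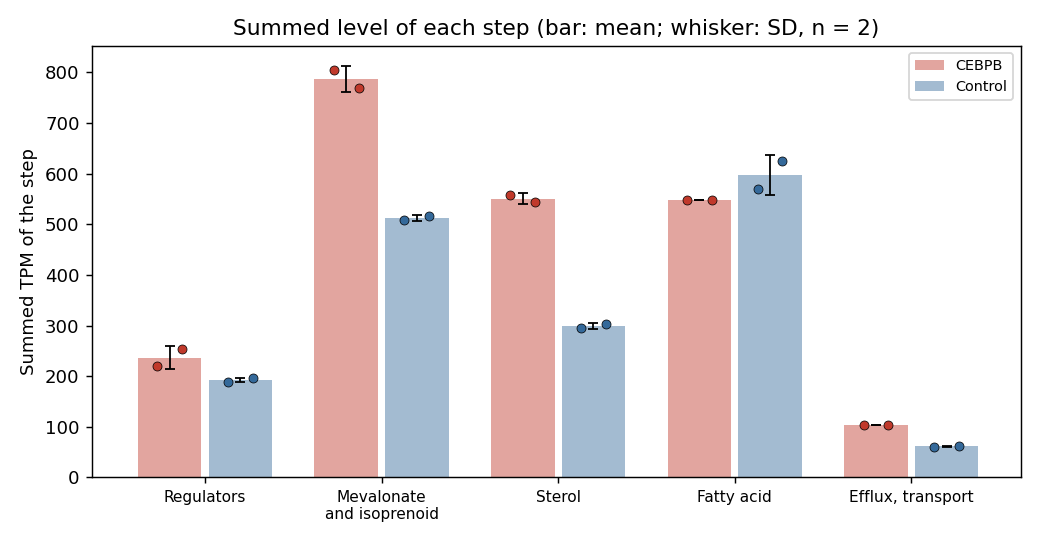
Summed TPM of the members of each step, with 1 point per library, bars for the mean and whiskers for the SD (n = 2). The mevalonate and sterol sums are higher in the CEBPB libraries, and the fatty acid sum, which includes ELOVL5, the member that rose, is slightly lower.

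Sums of TPM lack the scaling by trimmed mean of M values used for the fold changes. Their ratios therefore carry the upward shift of 0.18 on the log2 scale given for library totals. Summed over the 12 sterol members, the level was 558 and 543 TPM in the CEBPB libraries, against 295 and 304 TPM in the controls, a ratio of 1.84. The 8 mevalonate and isoprenoid members summed to 804 and 769 TPM in CEBPB and 509 and 517 TPM in the controls, a ratio of 1.53. The 8 fatty acid members summed to 549 and 548 TPM in CEBPB and 569 and 626 TPM in the controls, a ratio of 0.917. Of that sum, ELOVL5, the member that rose, held 219.6 and 189.9 TPM in CEBPB and 111 and 116 TPM in the controls. Within a library, where no scaling enters, the mevalonate and sterol sum was 2.48 and 2.40 times that of all 8 fatty acid members in the CEBPB libraries, and 1.41 and 1.31 times in the controls. Set against ACLY, ACACA, FASN and SCD alone, the members that fell, it was 5.72 and 5.50 times in the CEBPB libraries. In the controls that ratio was 2.38 and 2.24. The groups did not overlap in either ratio.

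Of the 4 tested efflux and transport members, ABCA1 and NPC1 rose and the other two did not pass. ABCA1, the pump that loads cholesterol onto apolipoprotein A-I (chromosome 9, 104781002 to 104928237, minus strand), stood at 11.1 and 9.08 TPM in the CEBPB libraries, against 0.99 and 1.18 TPM in the controls. Its log2 fold change was 3.0 (edgeR adjusted p = 0.000381, SE 0.20). NPC1, which exports cholesterol from late endosomes, stood at 28.6 and 25.2 TPM in the CEBPB libraries, against 12.8 and 10.3 TPM in the controls (1.04, edgeR adjusted p = 0.00226, SE 0.13). NPC2, the soluble carrier that hands cholesterol to NPC1, stood at 60.2 and 65.9 TPM in the CEBPB libraries, against 44.8 and 47.0 TPM in the controls, and did not pass (0.28, edgeR adjusted p = 0.0555), though it did with library totals (adjusted p = 0.00728). NR1H3, which encodes LXRα, stood at 3.52 and 3.99 TPM in CEBPB and 2.38 and 3.93 TPM in the controls (0.07, 95% interval -0.70 to 0.83), and its value was below 0 without CEBPB replicate 2 (-0.060) or without Control replicate 1 (-0.25). ABCG1, the second LXR-induced pump, was listed at 0.0992 TPM or less in each library, on 5 and 3 recovered reads in the CEBPB libraries and 1 and 2 in the controls. At this depth a difference in ABCG1 was not detectable.

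**Figure D4:**
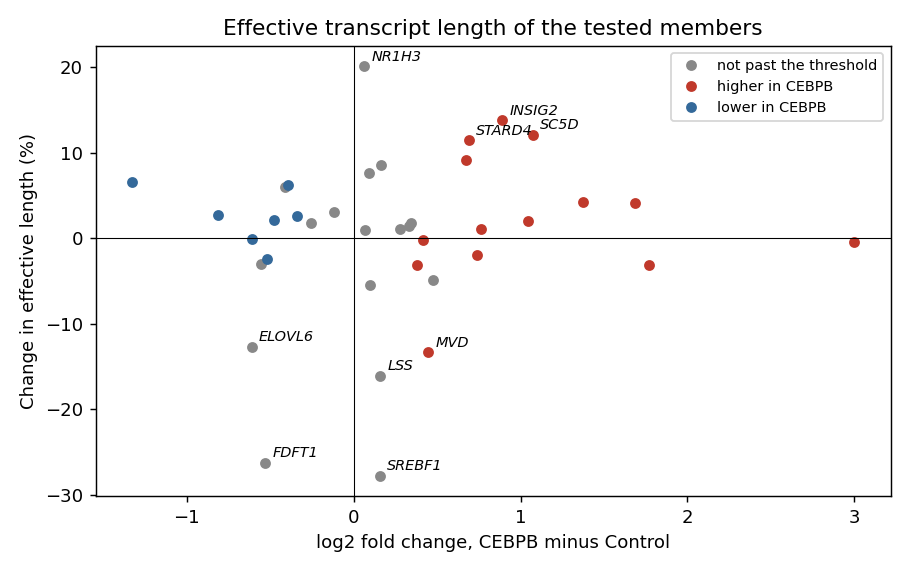
Change in effective transcript length (CEBPB against Control, in percent) of the 38 tested members against their log2 fold change, with members past 10% named. SREBF1 and FDFT1 lie lowest, at -27.8% and -26.2%, and NR1H3 highest at 20.1%.

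The deposited effective length of a gene, in bases, moves with the mix of transcripts assigned to it. Its change between the groups had a median of 1.61% over the tested members and 2.27% over all identifiers tested, and 4 members changed by more than 15%, a size that 15.3% of all identifiers passed. SREBF1 averaged less, at 2305 and 1990 bases in the CEBPB libraries, against 2976 and 2968 bases in the controls. It had more TPM but fewer recovered reads in the CEBPB libraries, 1362 and 1318 against 1633 and 1822. Tested on recovered reads without a length offset, an alternative chosen after seeing the data, SREBF1 was lower (-0.38, edgeR adjusted p = 0.00836). FDFT1 had 948 and 923 bases in the CEBPB libraries, against 1329 and 1208 bases in the controls. LSS had 3749 and 3988 bases in the CEBPB libraries, against 4272 and 4943 bases in the controls, and NR1H3 had 1323 and 1300 bases, against 1203 and 981 bases. Gene-level tables do not show which transcripts changed.

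Of 52 other genes of the pathway, taken as 4 lists, 48 could be tested. The share called in either direction was 33.3% in the SREBP processing list, 45.5% in the other sterol list and 55.6% in the other fatty acid list. Over all identifiers tested it was 48.5% (23.7% higher and 24.7% lower). Of the 4 lists, only the other fatty acid list was above that share. Whether any list differs from it was not tested. In SREBP processing and sterol-regulated degradation, 1 of 9 rose and 2 fell. ERLIN1 rose (72.0 and 74.0 TPM in CEBPB, against 48.8 and 49.6 TPM in the controls, log2 fold change 0.39) and its partner ERLIN2 fell (35.5 and 34.7 TPM, against 51.3 and 46.3 TPM, -0.65). The ERLIN1 call was lost without Control replicate 1 (adjusted p = 0.0602) or Control replicate 2 (0.0565). Together they form a membrane complex of sterol-dependent protein degradation. Among other sterol and isoprenoid enzymes, 3 of 11 tested rose and 2 fell. ACAT1, the mitochondrial acetoacetyl-CoA thiolase, fell (70.5 and 64.2 TPM in CEBPB, against 140.1 and 148 TPM in the controls, -1.28, edgeR adjusted p = 0.000219). PDSS1, which makes the prenyl tail of coenzyme Q, fell (-0.70), while NUS1, a subunit of the dolichol-making enzyme, rose (168 and 144 TPM in CEBPB, against 59.5 and 63.3 TPM in the controls, 1.17, edgeR adjusted p = 0.000408).

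Among other genes of fatty acid supply, activation, elongation and desaturation, 6 of 18 tested rose and 4 fell. ME1, a source of cytosolic NADPH, rose (41.3 and 37.1 TPM in CEBPB, against 16.5 and 14.7 TPM in the controls, 1.15, edgeR adjusted p = 0.000592). ACSS2, which makes acetyl-CoA from acetate, rose (26.7 and 28.5 TPM in CEBPB, against 11.5 and 9.97 TPM in the controls, 1.19, edgeR adjusted p = 0.00119). Its effective length was 1756 and 1436 bases in CEBPB, against 2394 and 2556 bases in the controls, and on recovered reads without a length offset its log2 fold change was 0.49 (adjusted p = 0.00297). SLC25A1, the carrier that exports mitochondrial citrate to ACLY, fell (33.7 and 27.7 TPM in CEBPB, against 45.9 and 45.2 TPM in the controls, -0.75, edgeR adjusted p = 0.00199). Of the 10 tested LXR partners and esterification and oxysterol genes, 3 rose and STARD3 fell (-0.38), a call lost with library totals (adjusted p = 0.0731) and without Control replicate 2 (0.0638). The sterol transfer proteins GRAMD1B (9.92 and 9.1 TPM in CEBPB, against 3.9 and 3.92 TPM in the controls, 1.09) and OSBP (0.54) rose. The median log2 fold change of each of the 4 lists lay between 0.10 and 0.16, against 0.000921 over all identifiers tested, and 0.58 over the tested sterol members and -0.54 over the fatty acid members.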

How the data were processed

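Poly(A) RNA of 4 OCI-AML3 libraries was sequenced with a stranded Illumina kit, per the labels' protocols. Per the submitters' processing notes, Trimmomatic 0.39, kallisto 0.46.2 and GRCh38 were used; which annotation was used, whether strand was, and how transcripts were summed are not given in the sources used here. The authors deposited estimated counts, TPM and effective lengths in bases per gene. The notes name kallisto, which estimates counts per transcript, without giving its role. Each deposited count is the TPM times 1 constant per library, so counts carry no transcript length; approximate reads were rebuilt by multiplying TPM with effective length and matching each library's sum (58.7% to 60.8% of values between 0.2 and 500 lay within 0.01 of a whole number). Symbols were found for 35690 identifiers; gene coordinates are from GENCODE v29 and promoters from RefSeq.

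After rounding to whole numbers and filterByExpr, counts were normalised with TMM (trimmed mean of M values, factors between 0.938 and 1.09) and fitted over all identifiers in edgeR 4.0.16 in R 4.3.3 (quasi-likelihood F test, Benjamini-Hochberg adjusted p under 0.05; biological coefficient of variation 11.3%), checked on simulated data. Intervals use the fit's degrees of freedom. Alternatives used DESeq2 1.42.0 and limma 3.58.1, among others. Full statistics are given for up to 4 members per step with the smallest adjusted p, both directions included. The values of 1 pathway gene are not reported here. Members, lists and motifs were chosen with earlier results of these data known. Figures used matplotlib 3.10.9 in Python 3.11.15.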

Additional observations from a re-analysis of the deposited data

How the results depend on the processing

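Of the 21 members past the threshold, 9 passed in the same direction under all 15 alternatives (HMGCS1, PMVK, SQLE, CYP51A1, MSMO1, SC5D, FASN, ABCA1 and NPC1), 12 lost the call under at least 1, and none changed sign. INSIG2, IDI1, HSD17B7, STARD4, ACLY and ELOVL5 lost it only against a 1.5-fold change, which is a stricter threshold rather than another processing. Of the members that did not pass in the main test, 12 passed under at least 1 alternative. Signs changed for ACAT2 (0.066 with library totals, 0.062 and 0.063 with limma on log2 TPM with 1 and 0.1 added), for SREBF1 (-0.38), SREBF2 (-0.040) and LSS (-0.15) on recovered reads without a length offset, for SREBF1 (-0.069), SREBF2 (-0.098), INSIG1 (-0.035) and NR1H3 (-0.060) without CEBPB replicate 2, and for NR1H3 (-0.25) without Control replicate 1. With single libraries left out, their highest values were 0.37 for SREBF1, 0.29 for SREBF2, 0.22 for INSIG1 and 0.48 for NR1H3.

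Members called lower, 7 in the main test, numbered 3 with library totals, 4 with either limma fit and 13 on recovered reads without a length offset, where 30.7% of all identifiers were lower, against 17.2% with library totals, 17.9% and 17.6% with limma and 24.7% in the main test. Against a 1.5-fold change, 7 members were higher and 2 lower, with 1186 and 1188 of all identifiers. With single libraries left out, 13 to 17 members were higher and 5 to 10 lower, with 2289 to 2820 and 2398 to 3063 of all identifiers, or 32.7% to 41.2% in either direction; a lone library is then assumed to vary like the other group. The SREBP processing list had 3 calls in the main test, 6 with library totals, 6 and 7 with limma, 7 on recovered reads without a length offset, and 0 with edgeR against a 1.5-fold change (0 at an unadjusted p under 0.05, and 2 with DESeq2 against no change). The other sterol and isoprenoid list had 5, and 8 with library totals, 2 against a 1.5-fold change and 3 on recovered reads with a length offset. The other fatty acid list had 10, and 2 against a 1.5-fold change. The LXR list had 4, and 1 against a 1.5-fold change and 8 on recovered reads without a length offset. The share of all identifiers called moved as well. It was 48.5% in the main test, 49.5% with library totals, 50.7% and 50.1% with limma, and 40.5% with DESeq2. Against a 1.5-fold change it was 17.3%. On recovered reads it was 51% with a length offset and 61.2% without one (30.5% higher and 30.7% lower). With single libraries left out these 4 lists had 1 to 3, 3 to 4, 6 to 9 and 2 to 4 calls. The cause of these shifts was not tested.

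Deviations of same-numbered libraries from their group means had a correlation of -0.0131 across identifiers. With 2 libraries in each group, this value cannot show whether same-numbered libraries shared a culture or a preparation. With a replicate block, 16 members were higher and 10 lower, while 23.2% of all identifiers were higher and 24.1% lower, against 23.7% and 24.7% without it. Low levels limit FDFT1, TM7SF2, NR1H3 and ABCG1.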
